A study of Mus musculus with 12 samples.

Results

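The expression of 41 cell cycle genes was measured in the hypertrophic zone of the mouse tibial growth plate. The 41 genes were chosen by gene name, and each was present on the array, with 66 probes among the 41174 probes tested. Of the 41 genes, 29 act in cells that are copying DNA or dividing and 12 are regulators that set whether a cell enters the cycle (D cyclins and their kinases, CDK inhibitors and pocket proteins). The hypertrophic zone was microdissected from 1 tibia of each of 12 mice aged 14 days, with 3 mice in each of 4 groups. Schmid mice carry the Col10a1 p.Asn617Lys collagen X mutation, and the study's figure legends describe them as homozygous. Cog mice (ColXTgcog) carry a transgene in which the collagen X promoter drives a misfolding thyroglobulin, so the transgene is active in hypertrophic chondrocytes. Mice with 1 and with 2 copies of the Cog transgene were not distinguished. Each mutant was set against wildtype littermates of its own background. Each value is a log2 signal, normalized so that all arrays share 1 distribution, and each gene is represented by its brightest probe unless another is named. A gene was called when its Benjamini-Hochberg adjusted p over all 41174 probes (limma) was 0.05 or less and its change was at least 2-fold.

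Chondrocytes of the growth plate divide in columns, leave the cell cycle and then enlarge in the hypertrophic zone. D cyclins with Cdk4 or Cdk6 inactivate the pocket proteins Rb1, Rbl1 and Rbl2, which frees E2F factors to transcribe the genes of DNA synthesis. CDK inhibitors of the Cip/Kip family (Cdkn1a, Cdkn1b and Cdkn1c) and the INK4 family (Cdkn2c) oppose these kinases. Cdkn1c in particular is known for its part in cell cycle exit and enlargement of growth plate chondrocytes.

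Col10a1, the marker of hypertrophic chondrocytes, was well above background on all 12 arrays, at log2 signals between 12.99 and 15.79. RNA of red blood cells was also present in every group, with Hbb-b1 between 13.30 and 19.11. The zone is a bulk sample, so that fewer cells of a type and less RNA per cell cannot be told apart. The 3 Schmid arrays lay on 1 slide, and their wildtype arrays lay on other slides, as did those of Cog, so slide and genotype cannot be told apart. On the Schmid arrays 58.9% to 61.8% of spots were well above background, against 48.0% to 59.4% on those of their wildtype. The matching values were 39.6% to 48.1% for Cog and 41.1% to 58.5% for its wildtype. The median signal of negative control spots was 202 to 617 on the Schmid arrays and 977 to 1199 on those of their wildtype. It was 1261 to 1894 for Cog and 999 to 1885 for its wildtype. At the brightest probe, 27 of the 41 genes were well above background on all 12 arrays, 13 on 1 to 11 arrays, and Cdk2 on none. All but 1 of the 14 genes not measured on every array belong to the 29 dividing-cell genes. The other is Rbl2.

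In the Schmid hypertrophic zone, some genes of mitosis and DNA replication were lower than in wildtype, while Ung, Ccnd2 and Chek1 were higher and most of the 41 genes were not called. Of the 41 genes, 9 were called lower (22%), against 4.69% of all probes. They were Mki67, Birc5, Tk1, Ccnb2, Cdc20, Mcm5, Plk1 and Mcm6 of the dividing-cell genes and the inhibitor Cdkn1c. A further 3 were called higher (7.32%), against 5.79% of all probes. The background counts every probe, including the many that are dim. Without wildtype replicate 3, which was scanned on another day than the Schmid arrays, 10 genes were called lower and 2 higher. Over all 41174 probes, 1650 were called lower and 1789 higher in that fit. Its spread was still estimated from arrays of both scan days. There Aurka and Ccna2 were called lower, and Ccnb2 and Chek1 were not called. Of the 29 dividing-cell genes, 2 were called higher and 8 lower, and their median log2 fold change was -0.54, beside -0.06 over all probes. Of the 12 regulators, 1 was called higher and 1 lower, with a median of -0.25. In the Cog hypertrophic zone no gene of the 41 was called in either direction at its brightest probe, where 1.57% of all probes were called higher and 0.746% lower.

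**Figure D1:**
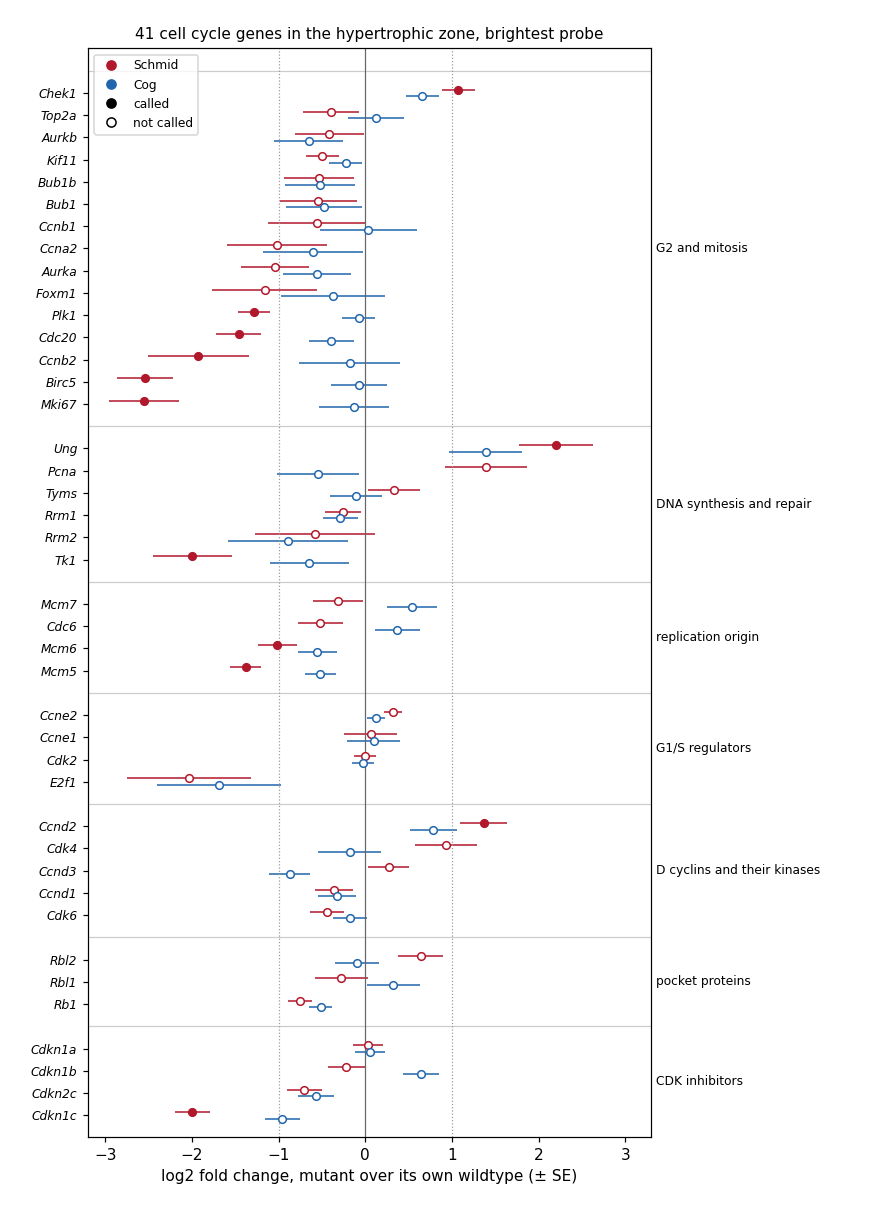
The log2 fold change of each of the 41 genes at its brightest probe, mutant over its own wildtype, with the standard error of the limma fit as a horizontal bar. Red points are Schmid and blue points Cog, filled points are called, the genes are grouped by role, and the dotted lines mark a 2-fold change. The 12 filled points all belong to Schmid, and they run from -2.55 for Mki67 to 2.20 for Ung.

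The promoters of the 6 dividing-cell genes with the lowest adjusted p in Schmid show which of the exact spellings searched these genes do and do not have in common. Each window runs from 250 bases before to 50 bases after the annotated start, is written 5′ to 3′ on the gene's own strand, and comes from RefSeq annotation of GRCm38.p6. Capitals mark matches to 4 motifs searched on both strands, so that a match to the opposite strand appears as its reverse complement. The cell cycle homology region was searched as TTTGAA. An E2F site was searched as either TTTGGCGC or TTTCGCGC. The CCAAT box was searched by its own letters, and the GC box as GGGCGG. The first 5 genes were called lower and Chek1 was called higher.
Mki67, chr7:135716330-135716629, minus strand: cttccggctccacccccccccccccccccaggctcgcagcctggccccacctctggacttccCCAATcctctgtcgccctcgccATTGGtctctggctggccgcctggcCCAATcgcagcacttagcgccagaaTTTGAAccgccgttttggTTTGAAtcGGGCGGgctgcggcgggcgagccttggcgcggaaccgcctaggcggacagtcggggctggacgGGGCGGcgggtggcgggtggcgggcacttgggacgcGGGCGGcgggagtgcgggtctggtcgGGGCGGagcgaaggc
Plk1, chr7:122159185-122159484, plus strand: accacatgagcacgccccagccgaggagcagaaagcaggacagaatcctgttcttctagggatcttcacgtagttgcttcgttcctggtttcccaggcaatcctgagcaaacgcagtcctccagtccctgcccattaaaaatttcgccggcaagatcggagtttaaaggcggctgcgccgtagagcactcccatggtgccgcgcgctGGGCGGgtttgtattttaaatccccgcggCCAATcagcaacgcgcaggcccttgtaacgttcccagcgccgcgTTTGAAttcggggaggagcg
Cdc20, chr4:118437294-118437593, minus strand: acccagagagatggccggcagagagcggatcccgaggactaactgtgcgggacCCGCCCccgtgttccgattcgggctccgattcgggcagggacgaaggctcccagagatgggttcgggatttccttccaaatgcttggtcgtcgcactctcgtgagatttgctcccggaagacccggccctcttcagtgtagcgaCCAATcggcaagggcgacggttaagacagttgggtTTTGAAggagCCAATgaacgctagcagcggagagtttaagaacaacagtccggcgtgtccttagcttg
Mcm5, chr8:75109259-75109558, plus strand: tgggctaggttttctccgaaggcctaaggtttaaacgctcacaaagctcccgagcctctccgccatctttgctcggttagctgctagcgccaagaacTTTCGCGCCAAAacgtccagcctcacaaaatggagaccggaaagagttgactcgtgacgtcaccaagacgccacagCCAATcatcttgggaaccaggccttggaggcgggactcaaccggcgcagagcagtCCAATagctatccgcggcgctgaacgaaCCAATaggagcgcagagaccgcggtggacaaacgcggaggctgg
Birc5, chr11:117848987-117849286, plus strand: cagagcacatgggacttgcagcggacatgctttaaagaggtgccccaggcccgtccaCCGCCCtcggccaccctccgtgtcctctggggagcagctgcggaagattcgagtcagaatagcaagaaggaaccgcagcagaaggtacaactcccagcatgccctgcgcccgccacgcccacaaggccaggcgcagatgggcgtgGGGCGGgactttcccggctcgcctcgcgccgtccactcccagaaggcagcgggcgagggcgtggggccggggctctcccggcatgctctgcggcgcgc
Chek1, chr9:36726609-36726908, minus strand: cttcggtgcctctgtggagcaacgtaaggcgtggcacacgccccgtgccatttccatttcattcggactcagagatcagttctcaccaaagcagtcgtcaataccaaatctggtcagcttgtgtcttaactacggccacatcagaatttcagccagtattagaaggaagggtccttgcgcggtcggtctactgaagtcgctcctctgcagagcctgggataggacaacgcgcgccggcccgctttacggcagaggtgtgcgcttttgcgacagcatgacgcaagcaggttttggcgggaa

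The Mki67 window held TTTGAA at 2 positions, 116 and 98 bases before the start, with CCAAT boxes upstream of them. Cdc20 held TTTGAA 18 bases before the start between a pair of CCAAT boxes, and Plk1 held it 31 bases into the transcript. In Mcm5, TTTCGCGC on the gene's strand overlapped TTTGGCGC on the other strand, 153 bases before the start. Of the exact spellings searched, Birc5 held GC boxes alone and Chek1 held none. Chek1 did hold TTTGGCGG near the end of its window, which differs from TTTGGCGC in the last letter. Other spellings of these elements were not searched. Of the 41 genes, 33 had a window in the table. TTTGAA lay in 8 of 25 dividing-cell windows (32%) and in 1 of 8 regulator windows, against 17.9% of all 32851 windows. An E2F site as spelled above lay in 3 of the 25 dividing-cell windows, those of Mcm5, Mcm6 and Mcm7, against 1 of 8 regulator windows, that of Rbl1, and 0.813% of all windows. CCAAT lay in 17 of the 25 and in 1 of the 8, against 37.4% of all. GGGCGG lay in 19 of the 25 (76%) and in 6 of the 8 (75%), against 35.7% of all. The composite site of the stress factors CHOP and ATF4, TGATGCAA, lay in none of the 33 windows, against 0.895% of all. These matches describe letters only, and no binding was measured. Cdkn1c and Ccnd2 are named without a window.

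Among the 15 genes of G2 and mitosis, 5 were called lower in Schmid and 1 higher, with a median log2 fold change of -1.02. Mki67 encodes the Ki-67 protein, which coats mitotic chromosomes and marks dividing cells. Its log2 signal was 10.89, 11.29 and 10.93 on the Schmid arrays and 14.11, 13.85 and 12.81 on those of their wildtype. All 3 Schmid values lay below every value of the other 9 arrays, of which the lowest was 11.69. The difference was -2.55 ± 0.40 (SE), with an adjusted p of 0.0019. Birc5 (survivin), a subunit of the chromosomal passenger complex, fell by a similar amount. Its log2 signal was 12.25, 11.81 and 11.92 in Schmid and 14.81, 14.63 and 14.16 in wildtype. The 3 Schmid values again lay below those of all other arrays, which began at 13.58, and the difference was -2.54 ± 0.32 (adjusted p = 0.00067). How many of all probes separate the Schmid arrays from the others, or a mutant from its wildtype, was not counted, here or below.

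Plk1, the kinase that drives mitotic entry and spindle assembly, was tightly grouped in Schmid at 10.40, 10.34 and 10.34, against 11.58, 11.82 and 11.54 in wildtype. The difference was -1.28 ± 0.19 (adjusted p = 0.0014), and no array of another group fell below 10.78. With row and GC trends removed, Plk1 was at -0.95 and was not called. Cdc20, the activator of the anaphase-promoting complex, was at 12.06, 11.89 and 11.97 in Schmid and at 14.08, 12.91 and 13.31 in wildtype. It fell by 1.46 ± 0.26 (adjusted p = 0.0036), again with the Schmid arrays below all 9 others. The mitotic cyclin Ccnb2 varied more, at 12.34, 11.16 and 10.85 in Schmid and 14.30, 12.70 and 13.12 in wildtype. The groups did not overlap and Ccnb2 was called (-1.93 ± 0.58, adjusted p = 0.038). Of these 5 genes, Ccnb2 alone rested on single arrays, since its call was lost without Schmid replicate 2 or 3 or without wildtype replicate 1 or 3, where the log2 fold change lay between -2.05 and -1.46.

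The other 9 mitotic genes had negative log2 fold changes and did not pass the test. Top2a, the topoisomerase that untangles replicated chromosomes, was well above background only on wildtype replicate 1 of the Schmid background. Its log2 signal was 8.98, 8.86 and 8.87 in Schmid, 10.03, 8.98 and 8.88 in wildtype, 9.92, 9.13 and 8.78 in Cog and 9.17, 9.07 and 9.22 in the wildtype of Cog. These values do not show whether Top2a changed. Aurka, the kinase of spindle poles, was -1.04 ± 0.39 (adjusted p = 0.078), Ccna2, the cyclin of S phase and G2, was -1.02 ± 0.58 (adjusted p = 0.22), and Foxm1, the transcription factor of mitotic genes, was -1.16 ± 0.60 (adjusted p = 0.18). The log2 fold changes of Aurkb, Bub1, Bub1b, Ccnb1, Kif11 and Top2a in Schmid ran from -0.56 to -0.39, and none was called.

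Of the 4 genes that license and load replication origins, 2 were called lower. Mcm5 and Mcm6 are subunits of the ring helicase that opens DNA at origins. Mcm5 was at 10.92, 11.06 and 10.92 in Schmid and at 12.60, 12.51 and 11.94 in wildtype, a difference of -1.38 ± 0.18 (adjusted p = 0.00075). Mcm6 was at 13.97, 14.35 and 14.48 in Schmid and at 15.12, 15.74 and 14.98 in wildtype, a difference of -1.02 ± 0.22 (adjusted p = 0.010). Mcm6 was close to the 2-fold limit and was not called without Schmid replicate 1 or wildtype replicate 2, at -0.87 and -0.79. It was also not called with the series matrix values (-0.97), with 75th percentile scaling after normexp (-0.91) or with array weights (-0.88). The helicase subunit Mcm7 (-0.31 ± 0.29, adjusted p = 0.45) and the licensing factor Cdc6 (-0.52 ± 0.26, adjusted p = 0.16) were not called.

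The 6 genes of DNA synthesis and repair did not move together. Tk1, the salvage enzyme thymidine kinase, was at 10.03, 10.44 and 10.28 in Schmid and at 12.84, 13.02 and 10.88 in wildtype. Wildtype replicate 3 lay close to the Schmid arrays and the other 2 lay far above. The difference was -2.00 ± 0.45 (adjusted p = 0.012). The calls of Tk1 and Ccnb2 were lost when only the arrays of Schmid and its wildtype were fitted. Ung encodes uracil-DNA glycosylase, which removes uracil from DNA, and it moved the other way. Its log2 signal was 15.66, 15.85 and 15.91 in Schmid and 13.47, 14.25 and 13.09 in wildtype, a difference of 2.20 ± 0.42 (adjusted p = 0.0051). The groups were more than 2-fold apart at their nearest values. Pcna, the sliding clamp of DNA polymerase, was at 14.75, 14.42 and 14.70 in Schmid and 14.45, 12.78 and 12.45 in wildtype, and was not called (1.40 ± 0.47, adjusted p = 0.055). It was called with the replicate number as a block (adjusted p = 0.043) and without wildtype replicate 1, where its difference was 2.01. Rrm1, Rrm2 and Tyms, which supply deoxynucleotides, were not called at their brightest probes, with log2 fold changes of -0.26, -0.58 and 0.33.

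Chek1, the kinase that holds the cycle when replication is incomplete, was the other dividing-cell gene called higher. It was at 10.98, 11.10 and 11.12 in Schmid and at 10.28, 9.91 and 9.81 in wildtype, a difference of 1.07 ± 0.19 (adjusted p = 0.0035). A dimmer Chek1 probe gave 0.33 ± 0.18 (adjusted p = 0.19), and without wildtype replicate 3 the brighter probe was at 0.98 and was not called. The call was also lost with 75th percentile scaling after normexp, with row and GC trends removed and with the mean of the Chek1 probes. Probes of Tyms disagreed as well. The dimmest of the 3 (X14489), well above background on 9 arrays, was called lower in Schmid (-1.21 ± 0.38, adjusted p = 0.044), while the other 2 gave 0.33 and 0.60 and were not called. Of the 4 regulators of the G1 to S transition, none was called. E2f1, the factor that switches on S phase genes, was -2.04 ± 0.72 (adjusted p = 0.062). It was at 9.87, 11.14 and 11.10 in Schmid and at 11.65, 13.66 and 12.92 in wildtype, without overlap, and it was called without wildtype replicate 1. The E cyclins Ccne1 and Ccne2 were at 0.06 and 0.32, and on no array was Cdk2 well above background.

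**Figure D2:**
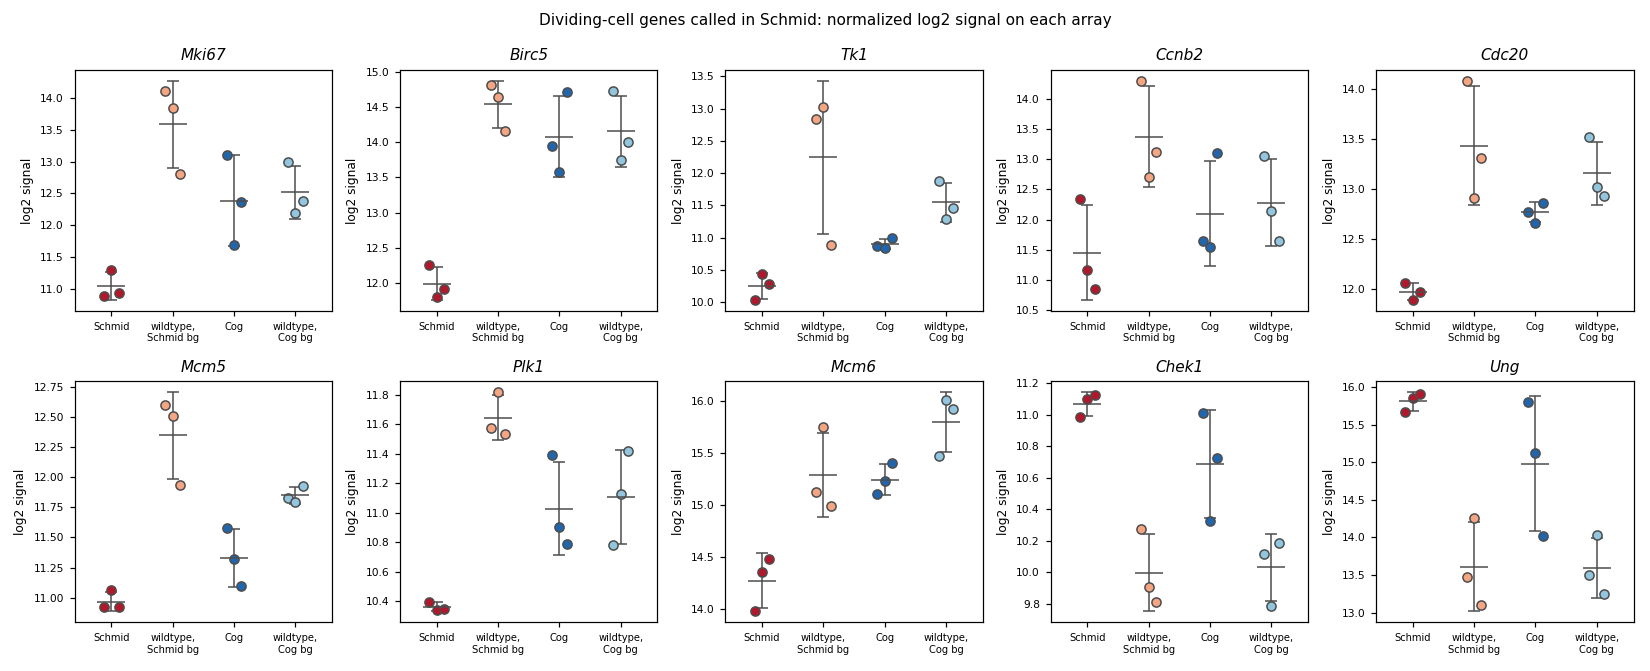
The normalized log2 signal of the 10 dividing-cell genes called in Schmid, with 1 point per array, and the mean (horizontal mark) and SD (vertical bar) of each group of 3 mice. Panels run from the largest decrease in Schmid to the largest increase. The Schmid points of Mki67 lie between 10.89 and 11.29 and those of Ung between 15.66 and 15.91, each clear of the wildtype points beside them, while the Cog points overlap their wildtype in the panels of Mki67, Birc5, Ccnb2, Plk1 and Ung.

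Most markers of other cells, like most of the 29 dividing-cell genes, were lower in Schmid than in wildtype. The mean log2 signal over the 29 genes was 12.15, 11.65 and 11.22 on wildtype replicates 1, 2 and 3 of the Schmid background and 11.10, 10.97 and 11.01 in Schmid. The mean over 10 erythroid markers on the same arrays was 13.53, 13.44 and 11.37 in wildtype and 11.18, 10.79 and 10.26 in Schmid. All 10 erythroid genes were lower in Schmid and 3 were called, with Hbb-b1 at -4.07 ± 0.61 (adjusted p = 0.0015). For the 9 neutrophil markers the mean was 14.04, 12.35 and 9.79 in wildtype and 11.98, 10.93 and 10.07 in Schmid. Of these 9, 8 were lower and none of those was called. The remaining one, Lcn2, was called higher. The mean over 8 endothelial markers was 11.24 to 11.68 in wildtype and 9.88 to 10.23 in Schmid, with 5 of the 8 called lower. The mean over 7 B and T cell markers was 10.20 to 11.46 in wildtype and 9.94 to 10.11 in Schmid. That over 7 osteoblast markers was 15.09 to 16.37 and 14.34 to 14.78. That over 7 osteoclast and macrophage markers was 10.61 to 11.68 and 10.24 to 10.50. In each of these 3 lists 1 gene was called lower. Of the B and T cell genes 6 had negative log2 fold changes, and Cd3e was higher in Schmid (0.88). Over all probes, 4.69% were called lower in Schmid, the share to set beside each marker list here and below.

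The mean over 7 markers of proliferative chondrocytes, the dividing cells next to the zone, was 14.11 to 15.05 in wildtype and 13.41 to 13.69 in Schmid. All 7 had negative log2 fold changes and 2 were called, Matn1 (-2.61 ± 0.38, adjusted p = 0.0014) and Fmod (-1.58 ± 0.41, adjusted p = 0.021). These 7 are a short list and do not stand for all genes of the proliferative zone. The study names Ung, called higher in Schmid, as another marker of that zone. Of the 7 hypertrophic markers, 6 were lower and 2 were called, and their mean was 15.36 to 16.49 in wildtype and 14.76 to 14.99 in Schmid. The called genes were Akp2, the alkaline phosphatase of mineralizing cartilage (-1.11 ± 0.29, adjusted p = 0.021), and Ihh. Ihh, the signal of cells that are about to enlarge, fell by 3.55 ± 0.31 (adjusted p = 0.00013), while Col10a1 differed by -0.02 ± 0.62 (adjusted p = 0.99). The part of these markers in the changes of the dividing-cell genes was not tested. Wildtype replicate 3 lay on the slide of the Cog arrays and was scanned on their day. The Schmid arrays and wildtype replicates 1 and 2 were scanned on another day, so comparisons with replicate 3 alone also cross slide and scan day. On wildtype replicate 3 the neutrophil mean was below all 3 Schmid arrays and the erythroid mean, at 11.37, was close to the highest of them at 11.18. The other marker lists were above every Schmid array on replicate 3, with an endothelial mean of 11.24, a proliferative chondrocyte mean of 14.39, an osteoblast mean of 15.09 and an osteoclast and macrophage mean of 10.64. Its Mki67 was at 12.81, Birc5 at 14.16, Plk1 at 11.54 and Cdc20 at 13.31, each more than 2-fold above every Schmid array. Tk1, at 10.88, lay within 2-fold of them. With wildtype replicates 1 and 2 left out together, an alternative chosen after these values were seen, 5 genes were called lower, namely Mki67 (-1.77), Birc5 (-2.17), Plk1 (-1.18), Cdc20 (-1.34) and Cdkn1c (-1.85). In the same fit, which rests on 1 wildtype array assumed to vary like the others, Tk1 (-0.63), Ccnb2 (-1.67), Mcm5 (-0.97) and Mcm6 (-0.72) were not called, and 6 genes were called higher, with Cdk4, Pcna and Tyms beside Ung, Ccnd2 and Chek1.

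**Figure D3:**
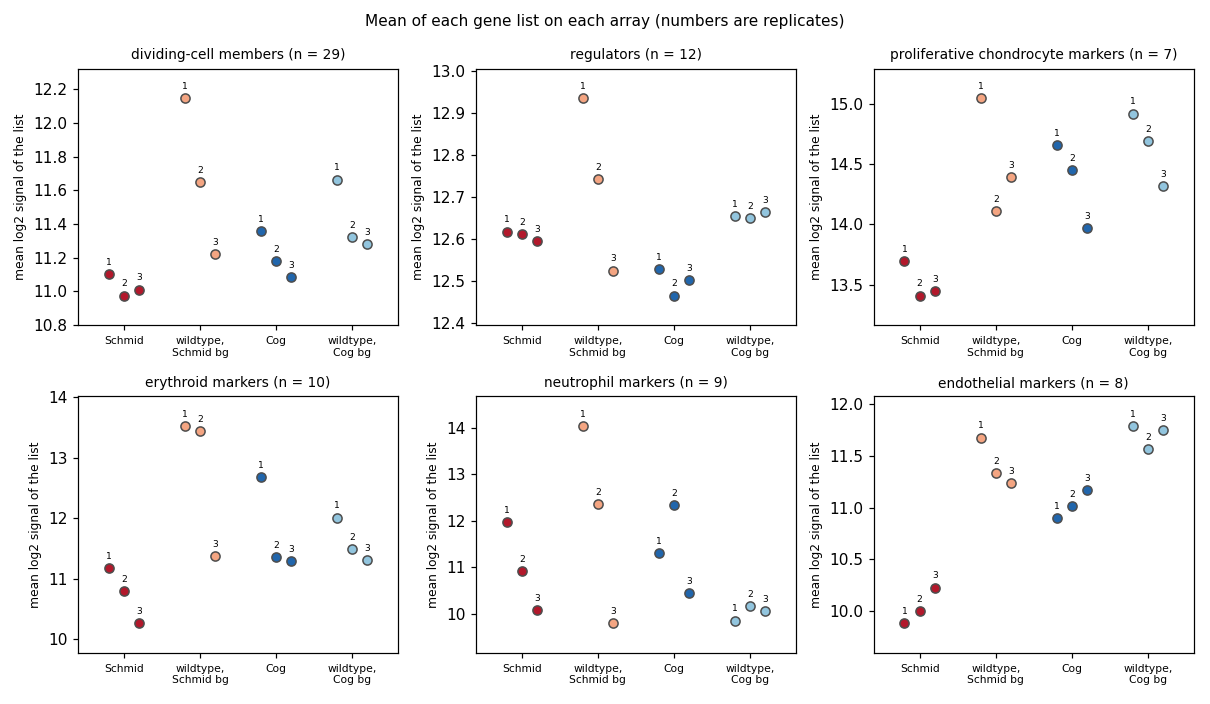
The mean log2 signal of the 29 dividing-cell genes, the 12 regulators and 4 marker lists on each array, with 1 point per array and the replicate number above it. In the wildtype of the Schmid background, replicates 1 and 2 are highest for the dividing-cell genes (12.15 and 11.65) and for the erythroid markers (13.53 and 13.44), and the regulators span a narrower range of 12.46 to 12.93 over all 12 arrays.

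Of the 12 regulators, Cdkn1c was called lower and Ccnd2 higher in Schmid. Cdkn1c, which encodes the inhibitor p57, had a log2 signal of 16.11, 15.46 and 15.83 in Schmid and 17.93, 17.81 and 17.66 in wildtype. Its difference of -2.00 ± 0.20 had the lowest adjusted p of the 41 genes at their brightest probes, 0.00027. In Cog it was at 16.95, 16.81 and 16.30, between the Schmid arrays and the wildtype arrays of its own background at 17.49, 17.60 and 17.84. All Cog values lay below all wildtype values, and the difference of -0.96 ± 0.20 had an adjusted p of 0.030 but fell short of 2-fold, so it was not called. Without Cog replicate 1 or its wildtype replicate 1 it was called, at -1.09 and -1.04.

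Cyclin D2 rose in both mutants. The brightest Ccnd2 probe was at 13.49, 14.12 and 13.91 in Schmid and at 12.65, 12.79 and 11.96 in wildtype, a difference of 1.37 ± 0.27 (adjusted p = 0.0058). In Cog it was at 12.59, 13.11 and 13.32 and in its wildtype at 12.18, 11.98 and 12.51, a difference of 0.78 ± 0.27 that was not called (adjusted p = 0.13). The groups did not overlap in either mutant. The other 2 Ccnd2 probes, less bright and with a smaller spread, were called in both. They both gave 1.71 in Schmid, with standard errors of 0.18 and 0.16, and in Cog 1.05 ± 0.18 (adjusted p = 0.014) and 1.03 ± 0.16 (adjusted p = 0.0086).

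The other 2 D cyclins did not follow it. Ccnd1 was at 9.98, 10.01 and 10.20 in Schmid, 10.69, 10.49 and 10.09 in wildtype, 10.83, 10.31 and 10.02 in Cog and 10.94, 10.70 and 10.50 in the wildtype of Cog, with overlap in both comparisons. Its log2 fold change was -0.36 in Schmid, with a 95% interval from -0.84 to 0.12, and -0.33 in Cog, from -0.81 to 0.16. Ccnd3 was at 12.64, 12.27 and 12.18 in Schmid and 12.12, 12.06 and 12.11 in wildtype, a difference of 0.27 ± 0.24 (adjusted p = 0.42). In Cog it was at 11.80, 11.37 and 10.80, below its wildtype at 11.90, 12.30 and 12.39, a difference of -0.87 ± 0.24 (adjusted p = 0.067). Of the partner kinases, Cdk4 was 0.93 ± 0.36 in Schmid (adjusted p = 0.083) and Cdk6 was -0.44 ± 0.19 (adjusted p = 0.12). Cdk4 was called in Schmid without wildtype replicate 1, at 1.32.

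The remaining inhibitors were not called. Cdkn1a, which encodes p21, the inhibitor that p53 induces, was at 15.76, 15.49 and 15.25 in Schmid and 15.25, 15.51 and 15.65 in wildtype. In Cog it was at 15.68, 15.73 and 16.01, against 15.88, 15.50 and 15.88. The groups overlapped in both comparisons, with log2 fold changes of 0.03 in Schmid (95% interval from -0.36 to 0.42) and 0.05 in Cog (from -0.33 to 0.44), so a 2-fold change lay outside both intervals. Cdkn1b, which encodes p27, was at 10.87, 11.26 and 11.34 in Schmid, 11.46, 11.42 and 11.23 in wildtype, 11.92, 11.32 and 11.35 in Cog and 10.56, 10.87 and 11.23 in the wildtype of Cog. Its Cog values lay above those of wildtype, with a difference of 0.64 ± 0.21 (adjusted p = 0.12), and in Schmid the difference was -0.22 ± 0.21 (adjusted p = 0.48). Cdkn2c, which encodes p18, was at 11.99, 12.53 and 12.61 in Schmid and 13.27, 12.92 and 13.05 in wildtype. It was at 12.27, 12.18 and 12.03 in Cog and 12.39, 13.04 and 12.76 in its wildtype. Mutant values were below wildtype in both comparisons. The Schmid difference was -0.70 ± 0.20 (adjusted p = 0.032), the Cog difference was -0.57 ± 0.20 (adjusted p = 0.14), and neither reached 2-fold. Of the pocket proteins, Rb1 fell under 2-fold in Schmid (-0.75 ± 0.14, adjusted p = 0.0038) and missed the threshold for Cog (-0.51 ± 0.14, adjusted p = 0.062), and Rbl1 and Rbl2 were at -0.28 and 0.64 in Schmid.

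**Figure D4:**
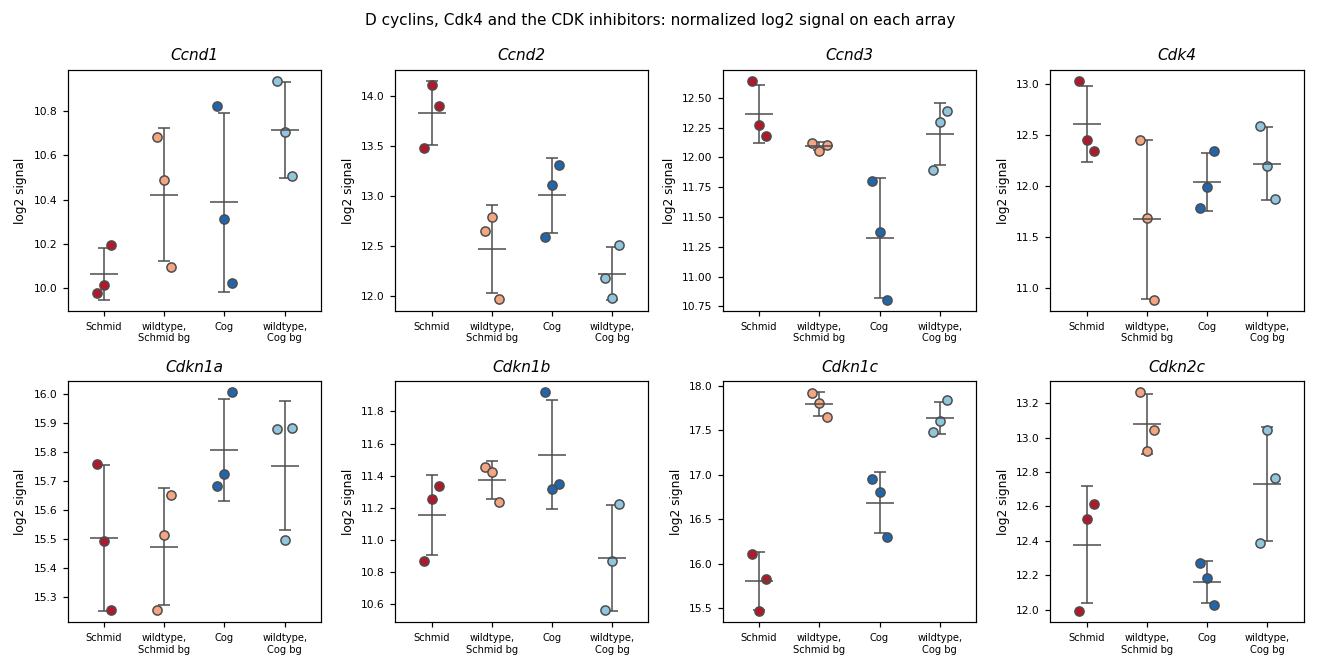
The normalized log2 signal of the 3 D cyclins, Cdk4 and the 4 CDK inhibitors, with 1 point per array, and the mean (horizontal mark) and SD (vertical bar) of each group of 3 mice. Cdkn1c is lowest in Schmid (15.46 to 16.11) and intermediate in Cog (16.30 to 16.95), Ccnd2 is highest in Schmid (13.49 to 14.12), and the 4 groups of Cdkn1a overlap.

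In Cog, 11 of the 41 genes (26.8%) had an unadjusted p of 0.05 or less, against 21.3% of all probes, although none was called at its brightest probe, and the median log2 fold change was -0.18, beside 0.00 over all probes. Ung had the largest increase. Its log2 signal was 15.80, 15.12 and 14.02 in Cog and 13.49, 14.03 and 13.24 in wildtype, a difference of 1.39 ± 0.42 (adjusted p = 0.093). Cog replicates 1 and 2 were above all wildtype arrays and replicate 3 was not, and without replicate 3 Ung was called, at 1.87. Chek1 was at 11.01, 10.33 and 10.73 in Cog, above its wildtype at 10.12, 9.79 and 10.19, with a difference of 0.66 ± 0.19 (adjusted p = 0.082). Mki67 was at 13.11, 11.69 and 12.36 in Cog and 12.99, 12.19 and 12.38 in its wildtype, and the groups overlapped. Its difference of -0.13 had a 95% interval from -1.03 to 0.76. For Birc5, at 13.95, 13.58 and 14.71 in Cog and 14.72, 13.74 and 14.00 in wildtype, the difference was -0.07, with an interval from -0.79 to 0.64. Plk1, at 11.39, 10.90 and 10.79 against 10.78, 11.12 and 11.42, differed by -0.08 ± 0.19 (adjusted p = 0.85). Mcm5 was at 11.58, 11.32 and 11.10, below its wildtype at 11.83, 11.79 and 11.93, by -0.52 ± 0.18 (adjusted p = 0.13). The other genes called in Schmid were also not called in Cog. Tk1 was at -0.64 (adjusted p = 0.45), Mcm6 at -0.56 (adjusted p = 0.19), Cdc20 at -0.39 (adjusted p = 0.43) and Ccnb2 at -0.18 (adjusted p = 0.89). Every Cog value of Tk1, Mcm6 and Cdc20 lay below every wildtype value, while those of Ccnb2 overlapped. Such separation does not make a call, and its share over all probes was not counted. On the Cog arrays the endothelial mean was 10.90 to 11.17, against 11.56 to 11.79 in wildtype, and the neutrophil mean was 10.44 to 12.33, against 9.85 to 10.17.

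The effects of the 2 mutations were compared directly, as the Schmid difference minus the Cog difference. Of the 41 genes, 4 were called lower in this comparison (9.76%) and 1 higher (2.44%), against 5.88% and 4.38% of all probes. Birc5 differed by -2.47 ± 0.46 (adjusted p = 0.0063) and Mki67 by -2.42 ± 0.57 (adjusted p = 0.018). Plk1 differed by -1.21 ± 0.27 (adjusted p = 0.014). For these 3 mitotic genes the decrease in Schmid was larger than any in Cog. Cdkn1c differed by -1.04 ± 0.29 (adjusted p = 0.036), being lower in both mutants but more so in Schmid. Ccnd3 differed by 1.14 ± 0.33 (adjusted p = 0.042). The call of Plk1 was lost with row and GC trends removed (-0.73) and with 75th percentile scaling of the processed signal (-1.20). The calls of Cdkn1c and Ccnd3 were fragile. That of Cdkn1c was lost without any 1 of 8 arrays, and that of Ccnd3 without any 1 of 10 arrays and with the replicate number as a block (adjusted p = 0.058). For Ung (0.81, 95% interval from -0.52 to 2.14), Ccnd2 (0.58, from -0.26 to 1.43) and Chek1 (0.42, from -0.18 to 1.01) the difference between the mutants was not called, and the intervals hold differences of 2-fold and more.

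No gene of the 41 was called between the wildtype groups, where 0.236% of all probes were called higher and 0.233% lower in the Cog background, and 6 of the 41 (14.6%) had an unadjusted p of 0.05 or less, against 14.1% of all probes. The wildtype of the Cog background was lower than that of the Schmid background for Mki67 (-1.07 ± 0.40, adjusted p = 0.26) and Ccnb2 (-1.10 ± 0.58, adjusted p = 0.45). It was lower by less, but with lower adjusted p, for Rb1 (-0.56, adjusted p = 0.092), Plk1 (-0.54, adjusted p = 0.23) and Mcm5 (-0.50, adjusted p = 0.24). For Cdkn1c the wildtype groups differed by -0.16 and for Ung by -0.02.

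A further 106 genes of the cell cycle, taken from a list of mitosis, replication and arrest genes, were examined beside the 41. In Schmid 11 of them (10.4%) were called lower, against 4.69% of all probes, and 6 (5.66%) higher, near the 5.79% of all probes. Their median log2 fold change was -0.23. Of the 43 mitosis genes 7 were called lower and none higher, and of the 45 replication genes 3 were called lower and 1 higher. The largest decreases were those of the kinetochore motor Cenpe (-2.00 ± 0.44, adjusted p = 0.010), the phosphatase Cdc25b, which activates mitotic kinase (-1.70 ± 0.31, adjusted p = 0.0040), and the DNA ligase Lig1 (-1.57 ± 0.23, adjusted p = 0.0013). Among the 18 genes of inhibition and arrest, 5 were called higher and 1 lower. The largest increase overall was that of Gadd45a, a gene induced by growth arrest and DNA damage. Its log2 signal was 14.28, 14.35 and 14.34 in Schmid and 12.67, 11.81 and 12.46 in wildtype, a difference of 2.01 ± 0.29 (adjusted p = 0.0012). E2f4, a repressive E2F factor, was well above background in Schmid only and was at least 1.57-fold higher there (adjusted p = 0.0017). The Schmid arrays also had the lowest negative control signals, so genotype and array cannot be told apart in this detection.

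In Cog 2 of the 106 genes (1.89%) were called higher, near the share of all probes, and none lower. A total of 19 (17.9%) had an unadjusted p of 0.05 or less, against 21.3% of all probes. Gadd45a was at 13.95, 13.71 and 12.92 in Cog and 11.75, 11.82 and 12.30 in wildtype, a difference of 1.57 ± 0.29 (adjusted p = 0.017), and it was thus higher in both mutants. Racgap1, a gene of cytokinesis, was at 13.21, 12.53 and 12.42 in Cog and 11.64, 9.52 and 10.17 in wildtype (2.28 ± 0.53, adjusted p = 0.038). In Schmid the same gene was at -1.27 ± 0.53 (adjusted p = 0.10), and the effects of the 2 mutations differed by -3.54 ± 0.75 (adjusted p = 0.011). Without Cog replicate 2 or wildtype replicate 2 of the Cog background, none of the 106 was called higher in Cog.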

How the data were processed

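Hypertrophic zones of 12 mice were profiled, 3 in each of 4 groups. Per the labels and the study's methods, RNA was amplified in 2 linear rounds, labelled with Cy3 and hybridized to single-colour Agilent 44K arrays, and the authors deposited the spot intensity and background of each array from Feature Extraction 9.5.3, together with a series matrix of log2 values. These log2 values correlated with the present ones and served as an alternative.

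The deposited intensity values were corrected with normexp (offset 50) and quantile normalized after control spots were removed, outlier spots were left out, and duplicate spots of a probe were averaged (R 4.3.3, limma 3.58.1). A linear model of the 4 groups was fitted to all 12 arrays, with 8 residual degrees of freedom, moderated variances and Benjamini-Hochberg adjustment over 41174 probes. Standard errors and intervals come from this fit. The fit was tested on simulated data. Each gene is represented by its brightest probe (66 probes for 41 genes). Per-array values are given for called genes, D cyclins, CDK inhibitors, Mki67, Top2a and Ung, and for other cell cycle genes up to 3 in each direction are named by fold. One gene that this rule names is not reported here. The genes and lists were chosen with earlier results of these data known. Columns without a sample numbered 0.

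Each mouse is 1 array, so the number of arrays limits the precision. Same-numbered arrays of Schmid and its wildtype deviated together over the probes well above background on 12 arrays (correlations 0.31, 0.28 and 0.12), although over all probes the third was 0.07. Those of Cog and its wildtype did not (-0.21, 0.15 and -0.20). Same-numbered arrays of the 2 wildtype groups correlated at 0.51, 0.12 and 0.27 over the probes well above background on 12 arrays. Deviating together was thus not particular to a mutant and its own wildtype, and whether mice were paired by number is not known. A fit with the replicate number as a block is given where it changes a call. Alternatives covered signal, normalization, offset, filter, flagged spots, position and GC trends, slide, array weights, a test against 2-fold, probe averaging and each array left out. With scaling to the 75th percentile in place of quantile normalization, the all-probe median in Schmid moved from -0.06 to -0.35 and the called probes from 2383 higher and 1930 lower to 2569 and 3456.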

Additional observations from a re-analysis of the deposited data

Results flagged for a closer look

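The effect of the Schmid mutation differed from that of Cog by the direct test (adjusted p of 0.05 or less, limma) for 8 probes of 8 genes, that is 12.1% of the 66 probes of the 41 genes, against 16.5% of all probes. Of the mitotic genes, Birc5 differed by -2.47 (adjusted p = 0.0063), Mki67 by -2.42 (adjusted p = 0.018) and Plk1 by -1.21 (adjusted p = 0.014). The helicase subunit Mcm5 differed by -0.86 (adjusted p = 0.043), with the decrease in Cog at -0.52 and that in Schmid at -1.38. The inhibitor Cdkn1c differed by -1.04 (adjusted p = 0.036), and Ccnd3 differed by 1.14 (adjusted p = 0.042), being at 0.27 in Schmid and -0.87 in Cog. At the dimmest Cdk6 probe (NM_009873), well above background on 2 of 12 arrays, the difference was 1.07 (adjusted p = 0.0046), while the brightest Cdk6 probe gave -0.27 (adjusted p = 0.54). At the dimmest Tyms probe (X14489), the difference was -2.60 (adjusted p = 0.011), with -1.21 in Schmid and 1.39 in Cog, while the brightest Tyms probe gave 0.44 (adjusted p = 0.51).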

How the results depend on the processing

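None of the 41 genes that was called at its brightest probe changed direction under any alternative. The direction of other named genes, markers and dimmer probes under the alternatives was not examined. Of the 41 genes in Schmid, 3 were called higher and 9 lower. The count higher was 5 with array weights, 0 in a test against 2-fold itself, 6 with wildtype replicates 1 and 2 left out together (chosen after seeing the data), and 2 to 5 with each array left out. The count lower was 1 in the test against 2-fold (Cdkn1c), 5 with those 2 wildtype arrays left out, and 8 to 10 with each array left out. In Cog the count higher, 0, was 1 with slide as a random block and 1 with array weights, and 0 to 1 with each array left out, and the count lower, 0, was 0 to 2. For the Schmid effect against the Cog effect, the count higher, 1, was 0 with 75th percentile scaling of the processed signal, with row and GC trends removed, with the replicate block and in the test against 2-fold, 2 with normexp scaled to the 75th percentile and with slide as a random block, 3 with array weights, and 0 to 2 with each array left out. The count lower, 4, was 2 with 75th percentile scaling of the processed signal, 0 in the test against 2-fold and 3 to 7 with each array left out. Between the wildtype groups the count lower, 0, was 0 to 1.

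Of the other cell cycle genes in Schmid, 6 were called higher (0 against 2-fold, and 4 to 8 with each array left out). The count lower, 11, was 17 with either signal scaled to the 75th percentile, 19 with the processed signal quantile normalized, 6 with row and GC trends removed, 7 with only the groups compared, 0 against 2-fold, 5 with the mean of probes and 6 to 16 with each array left out. In Cog the count higher, 2, was 0 with 75th percentile scaling of the processed signal, with only the groups compared and against 2-fold, 1 with the processed signal quantile normalized, with the replicate block and with the mean of probes, and 0 to 2 with each array left out. The count lower, 0, was 1 with the processed signal quantile normalized, with normexp scaled to the 75th percentile and with array weights, 2 with slide as a random block, and 0 to 1 with each array left out. The cause of these shifts was not tested. In Schmid the replicate block added Pcna and changed no other call of the 41. Dim genes such as Top2a and Cdk2 are limited by signal over background.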
